A study of Mus musculus with 14 samples.

Results

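The genes described are the receptors for IL-6, IL-7, IL-10 and related cytokines, with 2 of the inhibitors these receptors induce. They were chosen by name: Il6ra, Il6st, Il27ra, Il7r, Il4ra, Il21r, Il10ra, Il17ra, Socs1 and Socs3. All 10 were among the 14449 genes of the table and all 10 passed the expression minimum (CPM over 1 in at least 3 libraries) that left 12329 genes for testing. They were measured in CD4+ cells sorted for an eGFP reporter of Foxp3, the transcription factor of regulatory T cells (Tregs), out of BALB/c lymph nodes; the mice were at postnatal day 35. A wild-type group of 7 libraries was compared with a group of 7 from Il1rn-/- mice, which lack the secreted antagonist of the IL-1 receptor; both groups carry the reporter. The title letters divide the libraries into set a (3 per genotype) and set b (4 per genotype), and the labels do not say what a letter stands for, nor whether each library was made from its own animal or animals, so p-values measure the spread between libraries, which may be technical. The title of the study names IL-1β-driven, osteoclastogenic Tregs in arthritis, and the question put to these genes is whether Tregs from Il1rn-/- mice differ in what they need to sense other cytokines.

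IL-6 binds its private chain IL-6Rα (Il6ra) and then the shared signalling chain gp130 (Il6st), and IL-27 binds IL-27Rα (Il27ra) with the same gp130; both activate STAT3 through JAK kinases. IL-7, IL-4 and IL-21 each pair a private chain (Il7r, Il4ra, Il21r) with the common γ chain Il2rg, which signals through JAK1 and JAK3 to STAT5, STAT6 and STAT3. IL-10 signals to STAT3 through Il10ra and Il10rb, whereas IL-17RA (Il17ra) belongs to another receptor family that signals through TRAF adaptors. Socs1 and Socs3 are STAT-induced inhibitors: SOCS1 blocks JAK kinases downstream of interferon and γ-chain receptors, and SOCS3 docks on gp130 to stop IL-6 signalling. Tregs are known for low surface IL-7Rα, and IL-6 signalling is known to oppose their differentiation.

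STAT dimers bind the palindrome TTCNNNGAA, and this motif was looked for in the promoters of these genes because induction through STAT is what Socs1 and Socs3 are known for. RefSeq promoters (GRCm38.p6, 250 bases before to 50 after the start site) were matched for 7 of the 10 genes. The motif, which reads the same on both strands, was in 8.30% of the 32851 promoters of that table. Among the 7 genes it was in the windows of Socs3, where its first base lay 154 bases upstream of the start site, and of Il7r, at 142 bases upstream. It was not in those of Socs1, Il6ra, Il6st, Il4ra and Il21r, which says only that these letters are absent from that window. A stretch of 100 bases that starts 200 bases upstream is shown for the 2 genes with the motif and, for contrast, for the other inhibitor, Socs1; all 3 lie on the minus strand, at chr11:117969467-117969566, chr15:9529977-9530076 and chr16:10785637-10785736. Capitals mark the motif.
Socs3: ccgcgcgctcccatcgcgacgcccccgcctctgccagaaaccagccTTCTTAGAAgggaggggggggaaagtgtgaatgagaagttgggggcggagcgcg
Il7r: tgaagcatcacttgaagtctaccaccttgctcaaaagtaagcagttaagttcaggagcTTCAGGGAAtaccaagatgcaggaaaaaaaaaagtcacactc
Socs1: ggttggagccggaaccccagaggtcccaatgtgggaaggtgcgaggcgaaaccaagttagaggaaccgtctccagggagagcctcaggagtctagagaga

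Il1rn itself is not among the genes analysed here, so the genotype labels could not be checked against it. Foxp3 was at 284 to 533 CPM in every library, and Cd4, Il2ra and Ctla4 were also read in all 14. Summed CPM of a B cell list was 30.1 to 81.8 in wild-type and 20.02 to 73.8 in Il1rn-/- libraries, with Pax5 at 0 in 7 libraries, and that of a monocyte, macrophage and neutrophil list was 11.04 to 18.1 and 2.94 to 27.5. It was 0.25 to 4.09 and 1.27 to 5.19 for dendritic cell, 28.3 to 65.1 and 26.5 to 49.0 for CD8 T and NK cell, and 67.7 to 106.3 and 65.1 to 107.6 for stromal and endothelial markers, of which Pecam1 alone made up 64.6 to 106.7, while Col1a1, Col1a2 and Pdgfra were at most at 2.54 and at 0 in 5, 6 and 10 libraries. A library had 952021 to 3756559 reads in these genes. In 6 libraries, here called shallow (every wild-type library of set b, and 1-b and 2-b of Il1rn-/-), the ribosomal RNA precursor Rn45s took 59.6% to 65.8% of reads, and 384360 to 905988 reads were left for the other genes; in the other 8, here called deep, it took 20.3% to 39.95% and left 1654868 to 2805693. Y-linked transcripts were read in 4 of the deep libraries: 1-a and 2-a of the wild type, which are in set a, and 3-b and 4-b of Il1rn-/-, which are in set b. Each of the 10 genes had at least 23 reads in every library, the fewest being for Socs3, and the highest count was 1683, for Il27ra.

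Per kilobase of exon, Il27ra was the most abundant of these transcripts, at a mean of 6.38 log2 CPM per kilobase over the 14 libraries, followed by Il4ra at 5.52 and Il6ra at 4.33. Il27ra was above Il4ra in 14 of 14 libraries, and so was Il4ra above Il6ra. The other 7 lay close together: Il7r at 4.19, Il10ra at 4.10, Socs3 at 3.99, Il17ra at 3.71, Il21r at 3.69, Socs1 at 3.43 and Il6st at 3.39 log2 CPM per kilobase. Neighbours in this lower range, starting from Il6ra and Il7r, kept their order in only 6 to 10 of 14 libraries, with SDs of the difference between neighbours of 0.36 to 0.91, so their order does not stand above the spread between libraries. Lengths are the exon unions of GENCODE M21, and isoform use was not measured. All values that follow are log2 CPM as deposited, not corrected for length, and are compared only within a gene.

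The 10 genes differed in how much they varied. Socs3 ranged over 3.21 log2 units between its lowest and highest library, Socs1 over 2.35 and Il7r over 1.80. Il27ra spanned 0.74, Il21r 0.81, Il17ra 0.88 and Il4ra 0.91, the narrowest ranges of the set. Both inhibitors thus varied more between libraries than any of the 8 receptors.

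**Figure D1:**
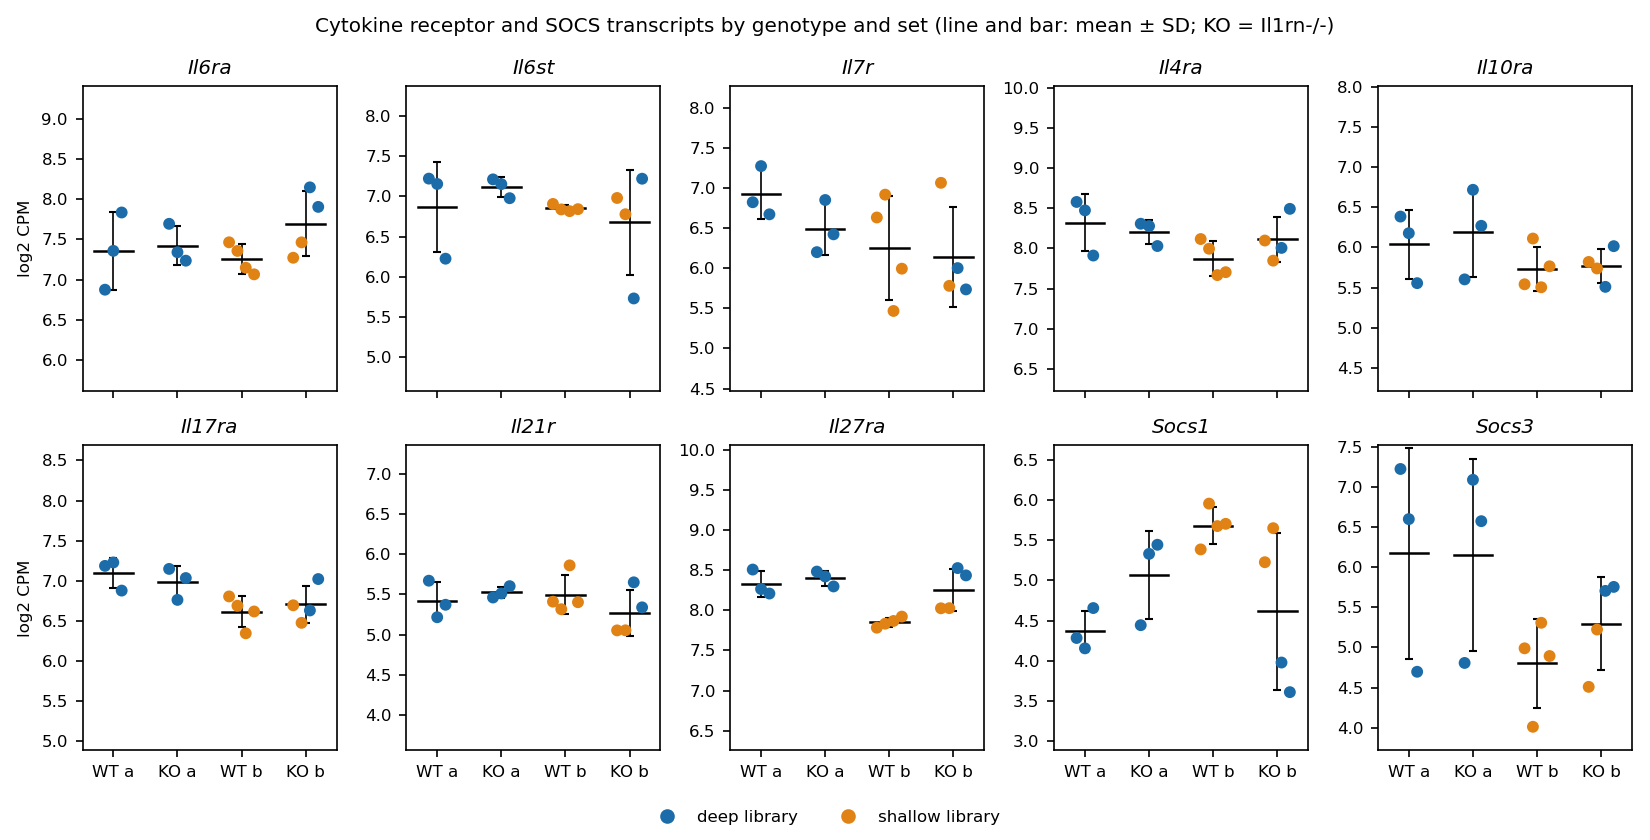
Each panel shows 1 gene, with log2 CPM on the y axis and the 4 groups on the x axis (WT wild type, KO Il1rn-/-, sets a and b); each point is 1 library, lines and bars are the mean ± SD, blue marks deep and orange shallow libraries, and every y axis is drawn over the same span. Over both sets the points of the genotypes overlap in every panel; in set b alone those of Il27ra do not, while Socs1 in set b runs from 3.61 to 5.96 and Socs3 in set a from 4.70 to 7.22.

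None of these transcripts was shown to differ between genotypes beyond the spread between libraries. Of the 10 genes, 0 passed the genotype test at an adjusted p of 0.05 (limma with Benjamini-Hochberg adjustment over 12329 genes), where the share of all tested genes that passed was 0%. At an unadjusted p under 0.05 there were 679 of all genes, none of them among the 10; limma voom on the recovered reads also called 0 genes, with 733 at an unadjusted p under 0.05. The median genotype difference of the 10 was 0.05, with 7 higher and 3 lower in Il1rn-/- (5 and 5 once libraries are centred on their medians, and also with CPM computed without Rn45s and mitochondrial genes, since Il6st and Il17ra then took the opposite sign), beside a median of 0.04 and 55.3% higher over all tested genes. Wild-type and Il1rn-/- libraries overlapped for every one of the 10; they did not for 0.0324% of all tested genes, so an overlap says little about these 10.

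Of the IL-6 and IL-27 receptor chains, Il6ra had a lowest, median and highest value of 6.87, 7.36 and 7.84 in wild-type and of 7.24, 7.46 and 8.15 in Il1rn-/- libraries. The means were 7.30 ± 0.31 and 7.58 ± 0.35 (SD, n = 7 each), a difference of 0.28 ± 0.17 (SE; 95% interval -0.08 to 0.64; limma adjusted p = 0.792). Il1rn-/- 3-b at 8.15 and 4-b at 7.91 were its highest libraries, and these are deep libraries with Y-linked transcripts. Leaving out the 4 libraries that hold such transcripts, and using the deep or shallow grouping instead of the letter, gave a difference of -0.08.

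Il6st, the chain that passes the IL-6 and IL-27 signal on, was at 7.22, 7.16 and 6.23 in the wild-type libraries of set a (1-a to 3-a, in that order) and at 6.91, 6.84, 6.82 and 6.84 in those of set b (1-b to 4-b). In Il1rn-/- it was at 7.21, 7.15 and 6.98 in set a and at 6.98, 6.78, 5.73 and 7.22 in set b. The values were thus tight apart from wild-type 3-a and Il1rn-/- 3-b, each far below the rest of its genotype. These same 2 libraries held the highest Il6ra of their genotypes, 7.84 and 8.15, so the private and the shared chain stood in opposite positions there. They also had the highest shares of the mitochondrial ribosomal RNA mt-Rnr2 in their genotypes, 11.2% and 16.2% of reads outside Rn45s. Whether Il6st and Il6ra followed this was not tested. The genotype difference of Il6st was 0.01 ± 0.21 (SE; 95% interval -0.42 to 0.44; limma adjusted p = 0.998). Leaving out the 4 libraries with Y-linked transcripts, with the deep or shallow grouping as the term, gave 0.34 (limma adjusted p = 0.726), and within set a 0.89 (limma adjusted p = 0.0968), where the 1 wild-type library that remained was the low 3-a.

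Il27ra, the private chain for IL-27, was at 8.51, 8.27 and 8.21 in the wild type of set a and at 8.48, 8.42 and 8.30 in Il1rn-/- of set a. It was at 7.78, 7.83, 7.87 and 7.92 in the wild type of set b and at 8.03, 8.03, 8.53 and 8.44 in Il1rn-/- of set b. In set b every Il1rn-/- library was above every wild-type one, which was so in either direction for 4.28% of all tested genes, while in set a the genotypes overlapped for Il27ra as for the other 9, against 7.97% of tested genes without overlap. Over all libraries Il1rn-/- was higher by 0.26 ± 0.14 (SE; 95% interval -0.02 to 0.54; limma adjusted p = 0.787), and 5 of 7 Il1rn-/- libraries exceeded the mean of the wild type. In set b all 4 libraries of the wild type were shallow and 2 of the 4 Il1rn-/- ones deep; among the shallow libraries alone the difference was 0.17, and among the deep ones 0.11.

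Among the γ-chain receptors, Il7r was at 6.82, 7.27 and 6.67 in the wild type of set a and at 6.20, 6.85 and 6.42 in Il1rn-/- of set a. It was at 6.63, 6.92, 5.47 and 5.99 in the wild type of set b and at 7.06, 5.78, 6.001 and 5.74 in Il1rn-/- of set b. The lowest value, 5.47, was in the library with the fewest reads, wild-type 3-b, where Il7r had 38 reads. The means were 6.54 ± 0.61 and 6.29 ± 0.51 (SD, n = 7 each), and the difference was -0.25 ± 0.23 (SE; 95% interval -0.74 to 0.25; limma adjusted p = 0.850). The wild-type mean was exceeded by 2 of 7 Il1rn-/- libraries. Between deep libraries alone the difference was -0.68 (limma adjusted p = 1), and between shallow ones it was 0.17, both without a letter term. Its direction thus depended on which libraries were compared. The deep fit set 3 wild-type libraries, all of set a, against 5 Il1rn-/- ones that included 3-b and 4-b of set b. The shallow fit set 4 wild-type libraries against 2 Il1rn-/- ones, at 7.06 and 5.78.

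Il4ra, the receptor for IL-4 that also serves IL-13, had a lowest, median and highest value of 7.67, 7.996 and 8.58 in wild-type and of 7.85, 8.10 and 8.49 in Il1rn-/- libraries. Its difference was 0.09 ± 0.16 (SE; 95% interval -0.24 to 0.41; limma adjusted p = 0.917). Il21r, the IL-21 receptor, had 5.22, 5.40 and 5.86 in wild-type and 5.05, 5.46 and 5.65 in Il1rn-/- libraries, with a difference of -0.08 ± 0.15 (SE; 95% interval -0.40 to 0.23; limma adjusted p = 0.917). These 2 genes are neighbours on mouse chromosome 7, with start sites 51158 bases apart in RefSeq GRCm38.p6. Their ranges overlapped almost wholly between genotypes.

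Il10ra, the ligand-binding chain for IL-10, had 5.50, 5.77 and 6.38 in wild-type and 5.51, 5.82 and 6.72 in Il1rn-/- libraries. The difference was 0.09 ± 0.18 (SE; 95% interval -0.29 to 0.47; limma adjusted p = 0.928). Il17ra, the shared chain for the IL-17 cytokines, had 6.35, 6.81 and 7.23 in wild-type and 6.48, 6.76 and 7.15 in Il1rn-/- libraries. Its means were 6.82 ± 0.31 and 6.82 ± 0.25 (SD, n = 7 each), and its difference of 0.00 ± 0.13 (SE; 95% interval -0.27 to 0.28; limma adjusted p = 0.999) took either sign in the alternatives. The farther end of the interval was 1.21-fold for Il17ra and 1.38-fold for Il10ra.

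Socs1 was at 4.28, 4.15 and 4.66 in the wild type of set a and at 4.44, 5.33 and 5.44 in Il1rn-/- of set a. It was at 5.39, 5.96, 5.68 and 5.71 in the wild type of set b and at 5.23, 5.65, 3.98 and 3.61 in Il1rn-/- of set b. The groups therefore stood in opposite order in the 2 sets, the wild-type mean being exceeded by 3 of 3 Il1rn-/- libraries in set a and 0 of 4 in set b. Over all libraries the means were 5.12 ± 0.74 and 4.81 ± 0.80 (SD, n = 7 each), a difference of -0.31 ± 0.34 (SE; 95% interval -1.01 to 0.40; limma adjusted p = 0.861); without Il1rn-/- 4-b it was -0.06.

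Socs3 was at 7.22, 6.60 and 4.70 in the wild type of set a and at 4.81, 7.09 and 6.57 in Il1rn-/- of set a. It was at 4.99, 4.01, 5.31 and 4.89 in the wild type of set b and at 4.51, 5.22, 5.70 and 5.75 in Il1rn-/- of set b. Set a thus held 4 libraries above 6 and 1 low library of each genotype, and set b none above 6. The means were 5.39 ± 1.13 and 5.66 ± 0.92 (SD, n = 7 each), and the difference was 0.28 ± 0.38 (SE; 95% interval -0.51 to 1.06; limma adjusted p = 0.889), which became 0.03 without wild-type 3-a and 0.56 without Il1rn-/- 1-a. The farther ends of the intervals of Socs1 and Socs3 were 2.01-fold and 2.09-fold, the largest of the 10, against 1.67-fold for Il7r, 1.56-fold for Il6ra, 1.46-fold for Il27ra and 1.32-fold to 1.35-fold for Il21r, Il4ra and Il6st.

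**Figure D2:**
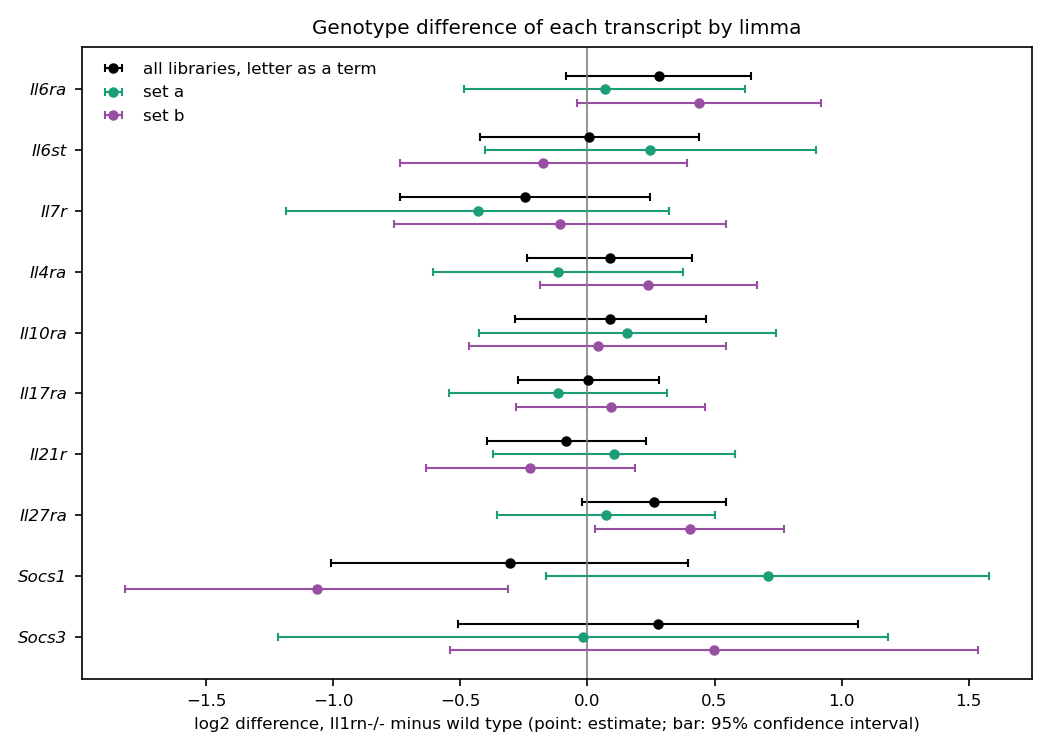
Points are genotype differences (x axis, log2, Il1rn-/- minus wild type) of the 10 genes (y axis) from limma, over all libraries with the letter as a term (black) and within set a (green) and set b (purple); bars are 95% intervals. All 10 black bars cross 0, and in set b the bars of Il27ra (0.40) and Socs1 (-1.07) do not.

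Within the sets, 0 of the 10 passed in set a and 0 in set b, as for all tested genes (0% in each; limma), which held 243 and 1848 genes at an unadjusted p under 0.05. In set a every one of the 10 had an adjusted p of 1, and the largest differences were 0.71 ± 0.42 for Socs1 and -0.43 ± 0.36 for Il7r (SE). In set b the 2 genes at an unadjusted p under 0.05 were Socs1, at -1.07 ± 0.36 (SE; limma adjusted p = 0.255), and Il27ra, at 0.40 ± 0.18 (SE; limma adjusted p = 0.310). Il6ra was at 0.44 ± 0.23 in set b and 0.07 ± 0.26 in set a (SE), and in set b all 4 Il1rn-/- libraries exceeded the mean of the wild type. The lowest of them, 1-b at 7.27, was barely above that mean of 7.26. Without 3-b and 4-b, the deep libraries with Y-linked transcripts, the Il6ra difference in set b was 0.11. Without Il1rn-/- 2-b, a shallow library at 5.65, the Socs1 difference in set b was -1.41 and passed (limma adjusted p = 0.0447). In that fit 230 of the 12329 tested genes passed. The Il1rn-/- libraries left in set b were the shallow 1-b and the deep 3-b and 4-b, both with Y-linked transcripts. Every wild-type library of set b was shallow and without such transcripts, so this call cannot tell genotype from library group.

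The difference between the sets was tested for itself. It was -1.77 ± 0.55 for Socs1 (SE; 95% interval -2.93 to -0.62), the only 1 of the 10 at an unadjusted p under 0.05, and did not pass (limma adjusted p = 0.610); the share of all tested genes that passed was 0%, with 968 at an unadjusted p under 0.05. For the other 9 it lay between -0.42 (Il6st) and 0.51 (Socs3). The 4 libraries with Y-linked transcripts were the 4 lowest in Socs1, at 3.61 to 4.28, whereas the other 4 deep libraries ran from 4.44 to 5.44 and the 6 shallow ones from 5.23 to 5.96. Such a lack of overlap between deep libraries with and without Y-linked transcripts was found for 4.92% of tested genes, and among the 10 for Socs1 only. Without those 4 libraries the Socs1 difference was 0.42 in set a, where 1 wild-type library remained and is assumed to vary like the others, and -0.24 in set b, and the difference between the sets was -0.66 (limma adjusted p = 0.987). For Socs3 the same step moved the set a difference from -0.02 to 1.46 (limma adjusted p = 0.768).

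**Figure D3:**
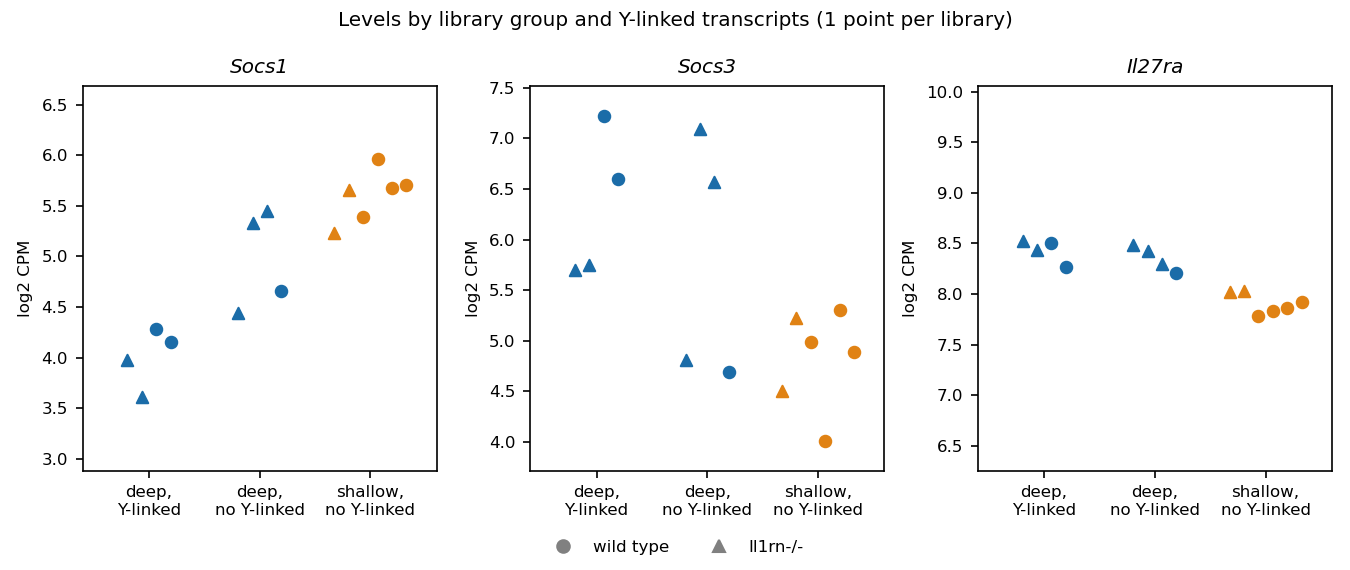
Log2 CPM (y axis) of Socs1, Socs3 and Il27ra in the 4 deep libraries with Y-linked transcripts, the 4 deep ones without and the 6 shallow ones (x axis); circles are wild-type and triangles Il1rn-/- libraries, 1 point each. Socs1 is at 3.61 to 4.28 in the first group and 5.23 to 5.96 in the last, Il27ra is at 8.21 to 8.53 in all deep and 7.78 to 8.03 in all shallow libraries, and Socs3 spreads from 4.70 to 7.22 among the deep ones.

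Set b was compared with set a in the same model, since the letter is the other label that divides the libraries. Socs3 was lower in set b by -1.12 ± 0.38 (SE; 95% interval -1.91 to -0.32; limma adjusted p = 0.0459), and was the only 1 of the 10 to pass, where 19.5% of all tested genes passed. The call was close to the threshold and was lost when any of 10 libraries was left out: wild-type 1-a, 2-a or 1-b to 4-b, or Il1rn-/- 2-a, 3-a, 1-b or 2-b; over the 14 such fits the difference ran from -1.44 to -0.85. With the deep or shallow grouping beside the letter it was -0.45 (limma adjusted p = 0.917). The neighbours below the threshold were Il17ra at -0.38 (limma adjusted p = 0.0528), Il27ra at -0.31 (0.115), Il7r at -0.51 (0.138) and Il10ra at -0.37 (0.160). Leaving out 1 library brought the limma adjusted p as low as 0.0172 for Il17ra, 0.0388 for Il7r and 0.0433 for Il27ra. These 3 genes thus also passed in some leave-out fits. Over all 14 leave-out fits, 1355 to 3376 of the tested genes passed. In all, 8 of the 10 were lower in set b, with a median of -0.29, beside a median of -0.11 and 43.6% higher over all tested genes. None of the 10 had sets a and b apart without overlap, as 1.5% of tested genes had. Among the marker genes, the B cell genes Ms4a1 and Cd22 were also lower in set b, by -1.33 and -2.28, as was 1 of the 10 Treg identity genes, Ikzf2, while 5 of those 10 were higher; their part in the Socs3 difference was not tested.

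The deep and shallow grouping, which follows the letter in part, moved with several of the 10. Il27ra was at 8.21 to 8.53 in the 8 deep and at 7.78 to 8.03 in the 6 shallow libraries, the only 1 of the 10 with no overlap, against 14.9% of tested genes. The mean deep minus shallow difference was 1.23 for Socs3, -1.11 for Socs1, 0.48 for Il27ra, 0.38 for Il17ra and 0.35 for Il4ra, and lay between 0.00 (Il6st) and 0.28 (Il10ra) for the other 5. The median over the 10 was 0.27, beside 0.13 over all tested genes. When this grouping replaced the letter, the genotype difference was 0.23 for Il6ra, 0.13 for Il27ra, -0.33 for Il7r, 0.01 for Socs1 and -0.08 for Socs3, all at a limma adjusted p of 1. In these bulk libraries, fewer cells that hold a transcript and less of it per cell cannot be told apart.

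Partner chains of the private ones were looked at together with chains of other cytokine receptors, such as those for interferons and IL-2. Of the 18 tested chains of this mixed list, 13 were higher and 5 lower in Il1rn-/-, with a median difference of 0.12, and 0 passed (limma). Il2rg, the common γ chain, was at 9.03 ± 0.14 and 9.15 ± 0.37 (SD, n = 7 each), a difference of 0.13 ± 0.17 (SE; limma adjusted p = 0.893). Il10rb, the second IL-10 receptor chain, differed by 0.09 ± 0.16 (SE), the same as Il10ra. Il2rb, the IL-2 and IL-15 receptor β chain, was at -0.29 ± 0.19 (SE; limma adjusted p = 0.797) and Ifngr1, an interferon-γ receptor chain, at 0.27 ± 0.23. With the deep and shallow grouping as the term 14 of the 18 were higher, with a median of 0.10. Over all 12329 tested genes 6706 were then higher, with a median of 0.03, which is the baseline for the lists that follow. With this term Ifngr1 was at 0.09 and Il2rb at 0.01, the shallow libraries of Il2rb lying at 9.59 to 9.89 and its deep ones at 8.26 to 9.13. Low-level chains had wide errors: Il23r, the private IL-23 chain, was at -0.89 ± 0.89 and Il12rb2, the IL-12 receptor β2 chain, at 1.45 ± 0.91 (SE).

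Of 20 ligands for these receptors, 7 were among the genes of the table and 5 were tested, with 0 passing; Il6, Il7, Il4, Il17a, Il21 and Il27 are not in the table analysed here. Il10, which Tregs themselves can make, was at 1.07 ± 2.65 in wild-type and 1.64 ± 1.55 in Il1rn-/- libraries (SD, n = 7 each), with a spread wider than the difference. Ebi3, the IL-27 and IL-35 subunit, differed by -0.12 ± 0.27 (SE), Osm, oncostatin M, by 0.28 ± 0.26 and Clcf1, another gp130 ligand, by 0.19 ± 0.27. The grouping turned the split of the 5 from 4 higher and 1 lower to 1 higher and 4 lower, with Clcf1 at -0.02.

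All 11 JAK and STAT genes were higher in Il1rn-/-, with a median difference of 0.22 (10 of 11, with a median of 0.15, without Rn45s and mitochondrial genes), but 0 passed (limma) and with the deep and shallow grouping in place of the letter 7 were higher and 4 lower, with a median of 0.08. Tyk2, a kinase of the gp130 and IL-10 receptors, differed by 0.45 ± 0.22 (SE; limma adjusted p = 0.787), and by 0.15 with the grouping. Stat3, the main STAT of IL-6, IL-10 and IL-21, differed by 0.09 ± 0.13, Jak1 by 0.17 ± 0.18 and Jak3 by 0.22 ± 0.19 (SE), which the grouping turned to -0.03. Between sets, 3 of the 11 passed, beside 19.5% of all tested genes, and all were lower in set b: Jak3, Tyk2 and Stat5b; with the grouping beside the letter, 12 genes of the whole table passed.

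Among 21 other SOCS genes and negative regulators, 9 were higher and 12 lower in Il1rn-/-, with a median of -0.07 and 0 passing (limma). Cish, the STAT5-induced SOCS family member, differed by -0.16 ± 0.14 (SE), Pias3, an inhibitor of STAT3, by 0.90 ± 0.37 and Elob, which links SOCS boxes to ubiquitin ligases, by -0.36 ± 0.24. Pias3 was at 1.27 to 3.08 in the shallow and at 3.26 to 4.65 in the deep libraries, so it followed the grouping. With the grouping as the term the split of the 21 turned to 14 higher and 7 lower, with a median of 0.04, Pias3 at 0.39 and Elob at 0.02. Of 15 genes that STAT3 induces in T cells, 10 were higher and 5 lower, with a median of 0.08, and Rora and Irf4, transcription factors of helper T cells, differed by 0.49 ± 0.30 and -0.26 ± 0.17 (SE). The grouping turned that split to 6 higher and 9 lower, with a median of -0.04, Rora at 0.03 and Irf4 at -0.17. Of 12 genes induced through STAT5 and STAT6, 5 were higher and 7 lower, with Pim2, a survival kinase, at -0.54 ± 0.20 and Ccr4, a chemokine receptor, at -0.40 ± 0.23 (SE); the split was the same with the grouping, with Pim2 at -0.30 and Ccr4 at -0.10. None of these passed.

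**Figure D4:**
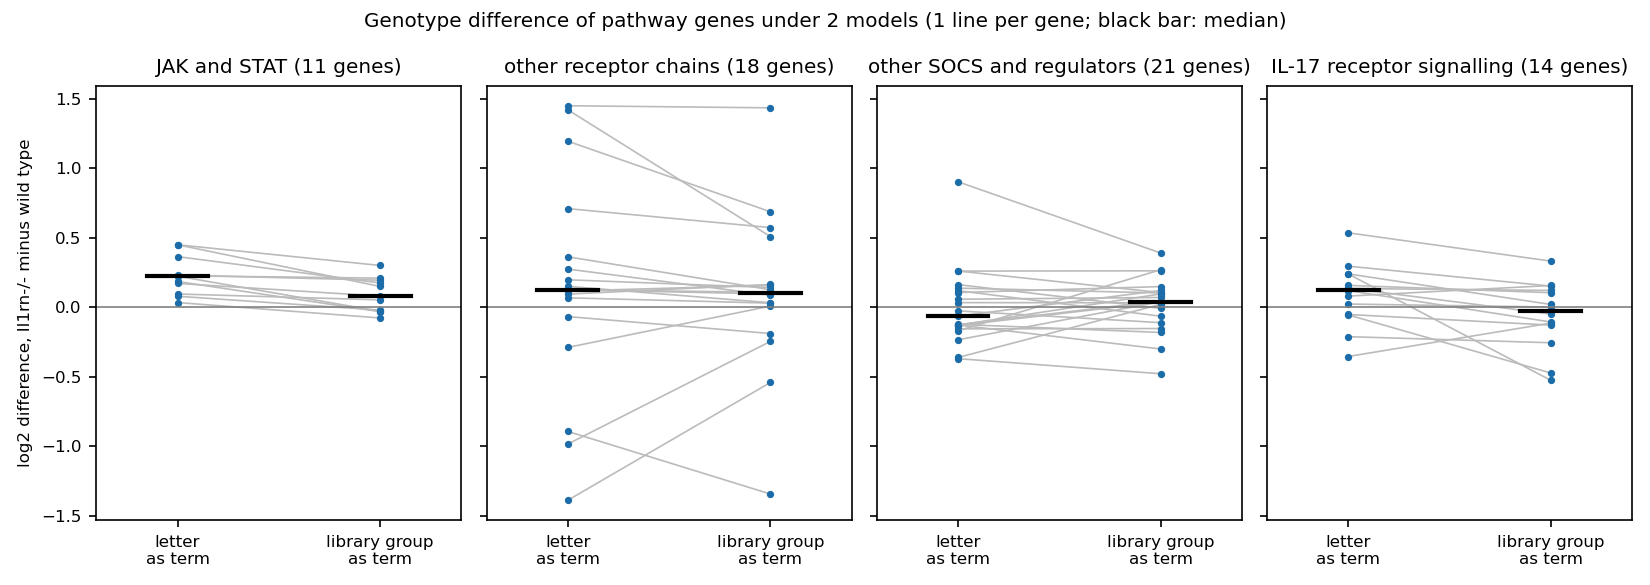
Genotype differences (y axis, log2, Il1rn-/- minus wild type) of single genes in 4 lists, joined by a line between the model with the letter and the model with the deep and shallow grouping (x axis); black bars are medians. The JAK and STAT median goes from 0.22 to 0.08 and the IL-17 receptor signalling median from 0.13 to -0.02, while that of all tested genes goes from 0.04 to 0.03.

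Of the regulators of Il7r transcription 6 of 13 were higher and 7 lower, with a median of 0.00 and 0 passing; Gabpa, which activates Il7r, differed by 0.31 ± 0.30 and Foxo3, a forkhead factor, by -0.54 ± 0.53 (SE). With the grouping 9 were higher and 4 lower, with a median of 0.10 and Foxo3 at 0.21, its shallow libraries lying at 5.05 to 5.80 and its deep ones at 2.16 to 4.11. In IL-17 receptor signalling 10 of 14 were higher with the letter as a term and 7 of 14 with the grouping, and 0 passed. With the letter as a term, Traf2, an adaptor, was at 0.53 ± 0.21 (SE; limma adjusted p = 0.787) and Map3k7, the kinase TAK1, at 0.29 ± 0.22. With the grouping they were at 0.33 and 0.15. The wild-type and Il1rn-/- means of Traf2 were 6.17 and 6.21 in deep libraries, and 5.13 and 5.88 in shallow ones. Of the 4 tested genes for shedding of receptors from the cell surface, Adam17, the protease that releases IL-6Rα, differed by -0.14 ± 0.18 and Rhbdf2, its trafficking partner, by 0.20 ± 0.32 (SE), and with the grouping by -0.23 and -0.11. Of the 10 Treg identity genes 6 were higher and 4 lower, with a median of 0.03 (4 and 6, with a median of -0.05, without Rn45s and mitochondrial genes); Il2ra, the IL-2 receptor α chain, differed by -0.22 ± 0.14 and Cd3e by -0.65 ± 0.32 (SE). With the grouping 7 of the 10 were higher and these differences were -0.01 and 0.05; Cd3e was at 9.63 to 10.10 in the shallow and at 6.97 to 8.11 in the deep libraries.

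The genes whose profile over the 14 libraries lay nearest to each of the 10 were found among 5227 genes of mean log2 CPM 4 or more, by the root mean square difference of centred log2 CPM. Il27ra had the closest match, Grk2, a receptor kinase, at 0.102 log2 units, then Anapc4 at 0.107. Il4ra and Il17ra shared a near neighbour, the coatomer gene Copg1, at 0.124 and 0.128. Socs3 lay nearest to the transcription factor gene Maf, at 0.395, and Socs1 to Rbm42, at 0.258, against 0.964 and 0.728 for the scatter of Socs3 and Socs1 around their own means. Il6st lay nearest to Prkacb at 0.176, Il6ra to Skap1 at 0.199, Il10ra to Rchy1 at 0.216, Il21r to Cdc37 at 0.147 and Il7r to Trim65 at 0.341. None of the 10 was among the 3 nearest genes of another. These distances are descriptions, since all profiles share the same libraries and depths.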

How the data were processed

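The authors deposited one table of log2 CPM per gene for 14 Smart-Seq2 libraries from RNA of sorted cells. Per the labels' protocols, Cuffquant 2.2.1 did the quantification; TopHat2 2.0.10, BWA, Cufflinks 2.2.1 and Cuffnorm are named in the submitters' processing notes, and the genome build is not given in the sources used here. Columns summed to 620415 to 1450870 on the linear scale, so CPM are relative to scaled library sizes. Whole reads were recovered from the steps of the values with a prior of 0.25 reads; 100% of values came out whole within 0.001.

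limma 3.58.1 (R 4.3.3, intensity trend) was fitted on genes with CPM over 1 in at least 3 of the 14 libraries, with genotype and title letter as terms, or with 4 groups for comparisons within sets, and p-values were adjusted by Benjamini-Hochberg over all 12329 genes tested at 0.05. It was tested on simulated data. A library with over 50% of its reads in Rn45s was called shallow, and Y-linked transcripts were called present from 20 reads of Ddx3y, Eif2s3y, Kdm5d and Uty. Named from each pathway list were the 2 genes of mean log2 CPM of 2 or more with the smallest unadjusted p where none passed, and Il2rg, Il10rb, Jak1, Jak3, Stat3 and Cish; Il23r, Il12rb2, Il10 and Ebi3 were named after their values were seen, and a gene that this rule names is not reported here. The members and lists were chosen with earlier results of these data known. Alternatives were other filters, a pseudocount of 1, centring, CPM without Rn45s and mitochondrial genes, voom, library weights, other covariates and leaving out libraries.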

Additional observations from a re-analysis of the deposited data

Results flagged for a closer look

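In both genotypes 1 library stood apart in Il6st, the gp130 gene. Wild-type 3-a was at 6.23 log2 CPM, and its gap to the next library took up 0.594 of the wild-type range. Il1rn-/- 3-b was at 5.73, and its gap took up 0.703 of the Il1rn-/- range. Both libraries had the highest mt-Rnr2 share of their genotype, and a link to Il6st was not tested. These low Il6st values are 2 flags among the 20 groups looked at (10 genes in 2 genotypes), and chance flags about 1 in 20. Without wild-type 3-a the genotype difference of Il6st was -0.14, and without Il1rn-/- 3-b it was 0.19.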

How the results depend on the processing

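The count of 0 genes for the genotype difference was also found with every filter, scaling, weight and covariate tried over all libraries, and was 2 among deep and 13 among shallow libraries alone; none of the 10 genes described was called for genotype in any of these fits. The count within set a was 11 without the libraries with Y-linked transcripts. For the letter it was 4091 with library weights and 12 with the library group beside the letter, and the split of higher against lower calls was 1046 to 1362, 1195 to 1085 with each library centred on its median and 1207 to 1075 with voom. Leaving out 1 library gave counts of 0 to 1 in set a (1 without wild-type 3-a), 0 to 230 in set b (230 without Il1rn-/- 2-b, 7 without 1-b and 3 without wild-type 1-b, 0 otherwise) and 1355 (without wild-type 2-a) to 3376 (without Il1rn-/- 4-b) for the letter, with 1570 without wild-type 1-a.

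The genotype difference took the opposite sign in these cases. It was -0.014 for Il6st and -0.019 for Il17ra with centring, -0.065 and -0.070 without Rn45s and mitochondrial genes, and -0.00917 for Il17ra with voom. Library weights gave -0.022 for Il4ra, -0.0800 for Il17ra and 0.12 for Socs1, and the library group in place of the letter gave -0.015 for Il4ra, -0.12 for Il17ra, 0.014 for Socs1 and -0.082 for Socs3. Deep libraries alone gave -0.0084 for Il6st, -0.098 for Il4ra, -0.016 for Il10ra, -0.18 for Il17ra, 0.094 for Il21r, 0.20 for Socs1 and -0.19 for Socs3; shallow ones gave 0.17 for Il7r and -0.029 for Il17ra. Libraries without Y-linked transcripts gave -0.078 for Il6ra and 0.043 for Il7r with the library group in place of the letter, and both groupings as terms gave -0.0025 for Il6st and -0.11 for Il17ra. Without the Y-linked libraries, values were -0.41 for Il6ra, 0.29 for Il4ra, 0.10 for Il17ra and 1.46 for Socs3 in set a, 0.029 for Il6st, 0.17 for Il7r and -0.029 for Il17ra in set b, and -0.19 for Il4ra, -0.13 for Il17ra, -0.017 for Il27ra and -1.39 for Socs3 in the difference between sets. In set b, Il10ra was -0.063 and Il17ra -0.012 without Rn45s and mitochondrial genes. The letter difference with the library group beside it was 0.10 for Il21r, 0.056 for Il27ra and -1.06 for Socs1. The cause of these changes was not tested.

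Leaving out 1 library gave ranges that crossed 0. Over both sets they were -0.14 to 0.19 for Il6st, -0.014 to 0.20 for Il10ra and -0.062 to 0.055 for Il17ra. In set a they were -0.17 to 0.31 for Il6ra, -0.074 to 0.42 for Il6st, -0.32 to 0.013 for Il4ra, -0.10 to 0.45 for Il10ra and -0.75 to 0.66 for Socs3. In set b they were -0.35 to 0.14 for Il6st, -0.41 to 0.11 for Il7r, -0.041 to 0.17 for Il10ra and -0.014 to 0.17 for Il17ra. Some ranges over both sets kept their sign but moved by over 1.5 times from the estimate with all libraries. They were 0.03 to 0.56 for Socs3, -0.47 to -0.06 for Socs1, -0.42 to -0.14 for Il7r, 0.0061 to 0.15 for Il4ra, -0.14 to -0.0051 for Il21r and 0.19 to 0.39 for Il6ra. Leave-out ranges of the difference between sets were -0.41 to 0.14 for Il10ra and -0.16 to 1.25 for Socs3. Same-numbered libraries did not deviate together (correlations of -0.15 to 0.00). These are deviations from means of 3 or 4 libraries, and Il1rn-/- of set b mixes deep and shallow ones. The correlations therefore cannot decide whether the numbers pair the libraries. With the replicate block 0 genes were called and the genotype difference of Il27ra was 0.26.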
